A study of Mus musculus with 18 samples.

Results

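The livers of mice fed a control diet or diets with a low or a high amount of quercetin were examined for 10 genes that hepatocytes around the central vein express under Wnt signalling: Glul, Slc1a2, Rhbg, Oat, Lect2, Tbx3, Axin2, Lgr5, Rnf43 and Znrf3. They were chosen by name. A probe set, the group of short probes on the array that reads one transcript, was taken for a gene where the platform annotation gave that gene as its only symbol. Of the 45101 probe sets on the array 22 belonged to the 10 genes, and 1 further probe set that named Slc1a2 together with Gm13872 was left out. Each gene was represented in the tests by its brightest probe set, and all 10 genes were among the 12886 genes tested.

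The arrays came from 18 male mice, and each held the RNA of the whole liver of 1 mouse. The control mice were fed AIN93G, a purified rodent diet, and the other 2 groups were fed AIN93G with 0.05% quercetin or with 1% quercetin. Feeding lasted 20 weeks from 5 weeks of age, and 6 mice of each diet were arrayed out of 12 that the labels give. The strain is written C57BL/6J in the housing protocol and C56BL/6J in the strain field, and no animal carried an engineered allele or another treatment. The mice were housed 3 to a cage, and which mice shared a cage is not in the labels, so cage could not be a term in the fit. Quercetin is a flavonol found in onions and many other plant foods.

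Hepatocytes along the liver lobule divide their tasks by position, from the periportal end, where blood enters, to the pericentral end, where it leaves through the central vein. Endothelial cells of the central vein release Wnt ligands and R-spondin 3, and in nearby hepatocytes β-catenin then enters the nucleus and switches on target genes with TCF/LEF proteins. Some of these targets remove ammonia by making glutamine, and others feed back on the pathway itself: AXIN2 and the ubiquitin ligases RNF43 and ZNRF3 damp it, and LGR5 binds R-spondins and so protects the receptors from those ligases. In RNA from whole tissue, fewer cells of a type and less RNA per cell cannot be told apart.

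The bases upstream of the annotated transcription start are shown for 4 of the genes because TCF/LEF proteins bind short sites with the core CTTTGA, and these genes include both that carry this core there and, for comparison, the glutamine synthetase gene and the feedback gene Axin2, which do not. The sequences are RefSeq's on GRCm38.p6 and run 5′ to 3′ on the strand of the gene over the 250 bases before its start. Capitals mark CTTTGA or its reverse complement TCAAAG.
Glul, chr1:153899679-153899928, plus strand: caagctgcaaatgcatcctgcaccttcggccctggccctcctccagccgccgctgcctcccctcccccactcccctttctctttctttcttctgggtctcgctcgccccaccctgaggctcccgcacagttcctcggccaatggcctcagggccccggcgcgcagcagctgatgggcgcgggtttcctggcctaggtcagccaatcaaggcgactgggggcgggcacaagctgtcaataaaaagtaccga
Axin2, chr11:108920099-108920348, plus strand: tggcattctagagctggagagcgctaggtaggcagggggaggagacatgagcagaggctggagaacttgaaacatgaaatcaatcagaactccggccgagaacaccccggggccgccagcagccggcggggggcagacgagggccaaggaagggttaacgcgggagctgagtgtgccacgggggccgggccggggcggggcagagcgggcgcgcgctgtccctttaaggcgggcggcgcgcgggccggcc
Slc1a2, chr2:102706188-102706437, plus strand: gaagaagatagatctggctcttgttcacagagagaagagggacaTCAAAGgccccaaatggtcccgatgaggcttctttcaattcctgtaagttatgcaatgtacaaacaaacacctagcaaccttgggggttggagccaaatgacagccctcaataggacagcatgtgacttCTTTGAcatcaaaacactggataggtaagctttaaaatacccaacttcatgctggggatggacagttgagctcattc
Lect2, chr13:56548539-56548788, minus strand: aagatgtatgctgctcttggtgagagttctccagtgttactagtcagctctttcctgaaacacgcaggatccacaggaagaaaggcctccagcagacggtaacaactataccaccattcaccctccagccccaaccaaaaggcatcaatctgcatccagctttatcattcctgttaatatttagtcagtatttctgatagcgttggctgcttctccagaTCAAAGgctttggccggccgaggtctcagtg
Counted from the first transcribed base, the core began at positions -206 and -77 in Slc1a2 and at -31 in Lect2. Windows were at hand for 6 of the 10 genes, 7 windows in all because Rnf43 had 2 starts, and 2 of these 7 windows held the core. Among all 32851 windows of this length 4544 held it, which is 13.8%. Neither Oat nor Rnf43 held it in these windows. A match of 6 letters is a description of the sequence and not a binding site.

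The values are array intensities brought to a common median and given as log2 of the scaled intensity plus 16, so that a difference of 1 is a doubling for a bright gene and understates the change of a dim one. The folds printed below are folds of intensity plus 16 and understate dim genes such as Rhbg, Axin2 and Rnf43 in the same way. The median intensity over all probe sets lay between 14.2 and 22.0 on the 18 arrays before scaling. Correlations between arrays over the tested genes ran from 0.959 to 0.989 and no 2 arrays held identical values. Hepatocyte markers were bright in every mouse, in keeping with the tissue label: 6 of the 7 listed were measured and Alb lay between 13.01 and 13.73. The adipocyte markers Adipoq and Lep were at 4.29 and 4.08, under the limit of 4.69 used here. That limit is the 40th percentile of all probe sets and not a detection call. Replicates are separate mice, and the number of arrays limits the precision.

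Few genes of the whole array passed the test. After Benjamini-Hochberg adjustment limma called 1 gene (0.00776% of those tested) in 1% quercetin against control, which was Tead1, and none in 0.05% against control (0%) or in 1% against 0.05% (0%). Unadjusted p-values under 0.05 numbered 1136 (8.82%), 648 (5.03%) and 1134 (8.8%) in the same 3 comparisons. None of the 10 pericentral genes passed the adjusted threshold in any of them. What follows therefore gives levels and average differences with their errors, and no gene is said to have changed.

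With 1% quercetin against control, 7 of the 10 genes were lower on average, where 52.7% of all tested genes were. The 4 with an unadjusted p under 0.05, Rhbg, Oat, Glul and Lect2, were all lower, and 4.93% of all genes were lower at that p. Without control replicate 3 Rhbg alone was under 0.05, and without 1% replicate 3 Rhbg and Oat were. The median difference of the 10 was -0.26, beside -0.01 over all tested genes. These 4 and Slc1a2 are the metabolic and secreted products of the pericentral hepatocyte, and their values come first.

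Rhbg encodes an ammonium transporter of the pericentral hepatocyte membrane. Its lowest, median and highest values were 5.84, 6.35 and 6.63 in control mice, 5.38, 6.15 and 6.76 in mice fed 0.05% quercetin, and 5.03, 5.77 and 5.91 in mice fed 1%. All 6 mice on 1% quercetin lay below the control mean and 3 of them below every control mouse, and the 0.05% mice spread over both ranges. The level averaged 5.62 ± 0.34 with 1% quercetin and 6.34 ± 0.28 in controls (SD, n = 6 each), a difference of -0.72 ± 0.21 (SE) or 0.606-fold, with an adjusted p of 0.368 from limma and an unadjusted p of 0.00314. An exact permutation test of the 12 mice gave p = 0.00866, two-sided and unadjusted.

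Oat encodes ornithine aminotransferase, a mitochondrial enzyme that turns ornithine towards glutamate. It ran through 11.31, 11.74 and 12.24 (lowest, median and highest) in control mice, 11.41, 11.95 and 12.17 with 0.05% quercetin, and 11.08, 11.39 and 11.68 with 1%. The 1% mice all lay under the control mean, yet only 3 of the 6 lay under every control. The difference of 1% against control was -0.40 ± 0.16 (adjusted p = 0.461, exact permutation p = 0.0346), and that of 1% against 0.05% was -0.49 ± 0.16 (adjusted p = 0.398).

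Glul encodes glutamine synthetase, which fixes ammonia in the last rows of hepatocytes before the central vein. Its brighter probe set varied little: 11.99, 12.07 and 12.29 in control mice, 12.04, 12.12 and 12.26 with 0.05% quercetin, and 11.74, 11.91 and 12.09 with 1%. Of the 6 mice on 1% quercetin 5 were below every control mouse and 5 below every 0.05% mouse. The average difference was small, -0.20 ± 0.08 against control (95% interval -0.36 to -0.04, adjusted p = 0.465, exact permutation p = 0.0152) and -0.25 ± 0.08 against 0.05% quercetin (adjusted p = 0.397).

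Lect2 encodes a protein that hepatocytes secrete into the blood. The control mice had values of 10.22, 10.48 and 11.14 (lowest, median and highest), the 0.05% mice 10.17, 10.53 and 10.75, and the 1% mice 9.82, 10.22 and 10.58. The groups overlapped widely. The difference of 1% against control was -0.36 ± 0.16 with an adjusted p of 0.549. The exact permutation test of the same mice gave p = 0.108.

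Slc1a2 encodes a glutamate transporter, known above all from astrocytes and also present in pericentral hepatocytes. Its brightest probe set spanned 7.98 to 9.03 in control mice, 8.25 to 9.16 with 0.05% quercetin and 8.31 to 8.66 with 1%, so the 1% range lay inside that of the controls. The difference of 1% against control was -0.12 ± 0.16, with a 95% interval from -0.45 to 0.22.

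**Figure D1:**
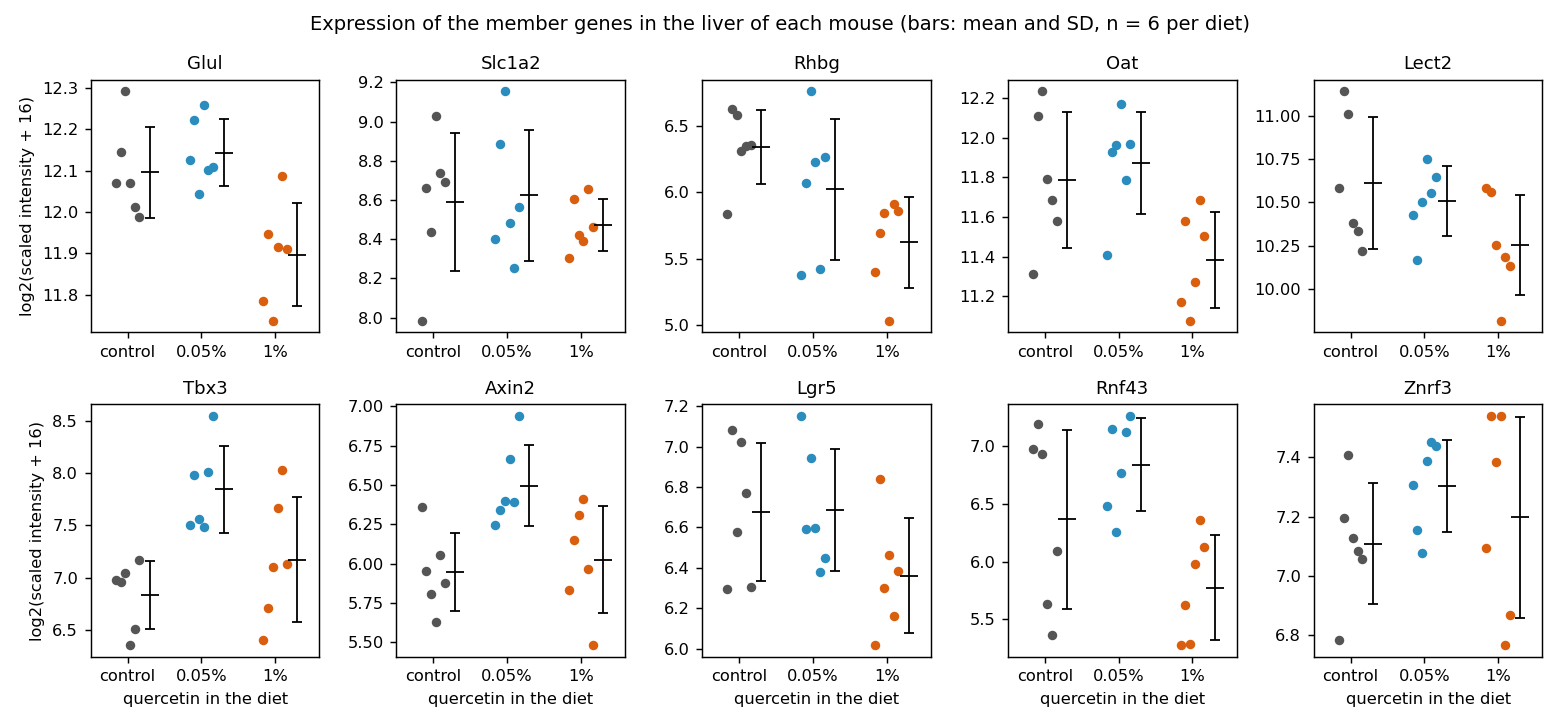
Level of each of the 10 genes (log2 of scaled intensity plus 16, vertical axis) in every mouse, by diet in dose order, with the mean and SD (n = 6) beside the points. The Rhbg points of the 1% mice all lie under the control mean of 6.34, and the Tbx3 points of the 0.05% mice all lie above the highest control of 7.17.

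The remaining 5 genes, a transcription factor and 4 regulators of the pathway, showed no shared direction with 1% quercetin against control. Tbx3, Axin2 and Znrf3 were higher on average by 0.34 ± 0.24, 0.08 ± 0.16 and 0.09 ± 0.14, and Lgr5 and Rnf43 were lower by differences of -0.31 ± 0.17 and -0.59 ± 0.30. Each of these 5 had an unadjusted p over 0.05. The controls themselves were divided for Rnf43, which lay between 5.36 and 7.20 among them. The division followed the replicate numbers: replicates 1 to 3 had 6.97, 7.20 and 6.93, and replicates 4 to 6 had 5.64, 5.36 and 6.10. With 1% quercetin it ran the other way, at 5.28, 5.62 and 5.29 in replicates 1 to 3 and 5.98, 6.36 and 6.13 in 4 to 6. What the numbers stand for is not in the labels, and the division was not tested.

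With 0.05% quercetin against control, the 2 genes of the set with an unadjusted p under 0.05 were Tbx3 and Axin2, both higher, and 2.62% of all tested genes were higher at that p. Of the 10 genes 8 had a difference above 0, where 46% of all genes did. The median difference was 0.07, beside -0.01 over all genes.

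Tbx3 encodes a T-box repressor that is a Wnt target in liver and liver tumours. It had values of 6.35, 6.96 and 7.17 (lowest, median and highest) in control mice, 7.48, 7.77 and 8.55 with 0.05% quercetin, and 6.40, 7.11 and 8.04 with 1%. Every 0.05% mouse was above every control mouse, and the 1% mice spanned most of both ranges. Groups apart in the same way, with the 0.05% mice higher, were seen for 0.171% of all tested genes. Tbx3 averaged 7.85 ± 0.42 with 0.05% quercetin and 6.83 ± 0.33 in controls (SD, n = 6 each), a difference of 1.01 ± 0.24 or 2.02-fold, with an adjusted p of 0.632 and an unadjusted p of 0.00056. The exact permutation test gave p = 0.00216, the smallest that the 924 arrangements of 6 and 6 mice allow. No other gene of the 10 had separate groups on its brightest probe set in this comparison or in 1% quercetin against control or against 0.05% quercetin, where 0.535% and 0.675% of all tested genes had them in either direction.

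Axin2 encodes a scaffold of the complex that degrades β-catenin and is a widely used readout of the pathway. Its lowest, median and highest values were 5.63, 5.92 and 6.36 in control mice, 6.24, 6.39 and 6.94 with 0.05% quercetin, and 5.48, 6.06 and 6.41 with 1%. All 6 mice on 0.05% quercetin lay above the control mean and 4 of them above every control. The difference was 0.55 ± 0.16 or 1.46-fold, with an adjusted p of 0.724 and an exact permutation p of 0.00649.

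For the 2 ligases and the R-spondin receptor the differences between 0.05% quercetin and control were smaller. Rnf43 had a difference of 0.47 ± 0.30 with values of 6.26, 6.95 and 7.26 with 0.05% quercetin, against 5.36, 6.51 and 7.20 in controls. Znrf3 had a difference of 0.19 ± 0.14, its range being 7.08 to 7.45 with 0.05% quercetin and 6.78 to 7.41 in controls. Lgr5 was nearly level, at 0.01 ± 0.17 with a 95% interval from -0.34 to 0.36. The 5 metabolic and secreted products lay between -0.32 ± 0.21 for Rhbg and 0.08 ± 0.16 for Oat.

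RNA quality was read from control probe sets, and the diets overlapped on both measures. The log2 ratio of the 3′ to the 5′ probe set of Gapdh lay between -0.32 and -0.02 with 0.05% quercetin, between -0.26 and -0.04 with 1%, and between -0.22 and 0.07 in controls. The same ratio of Actb lay between 0.99 and 1.22 with 0.05% quercetin, between 1.09 and 1.35 with 1%, and between 1.11 and 1.23 in controls. Its medians were 1.11, 1.25 and 1.18 in that order, so the diets were shifted against each other though their ranges overlapped. The Actb ratio was not used as a covariate. With the Gapdh ratio as a covariate Tbx3 differed by 0.90 ± 0.26 and Axin2 by 0.45 ± 0.16 between 0.05% quercetin and control, and Rnf43 by 0.20 ± 0.29 in place of 0.47. Between 1% quercetin and control Rhbg differed by -0.73 ± 0.23, Oat by -0.42 ± 0.16, Glul by -0.21 ± 0.08 and Lect2 by -0.47 ± 0.13 with the covariate, and none of the 10 passed the adjusted threshold.

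With 1% quercetin against 0.05% quercetin all 10 genes were lower on average on their brightest probe sets, where 50.8% of all tested genes were. The median difference was -0.36, beside -0.003 over all genes. The 5 with an unadjusted p under 0.05 were Rnf43, Glul, Oat, Axin2 and Tbx3, and 4.25% of all genes were lower at that p. The control mice serve both doses in the first comparisons and the 0.05% mice and 1% mice recur here, so the 3 sets of differences are not independent of each other.

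Rnf43 encodes a ligase that marks Frizzled receptors for removal, and it had the lowest unadjusted p of the 10 here. The mice fed 1% quercetin had 5.28, 5.80 and 6.36 (lowest, median and highest), and those fed 0.05% had 6.26, 6.95 and 7.26. Of the 6 mice on the higher dose 5 lay below every mouse on the lower. The level averaged 5.78 ± 0.45 with 1% and 6.84 ± 0.41 with 0.05% quercetin (SD, n = 6 each), a difference of -1.06 ± 0.30 or 0.478-fold, with an adjusted p of 0.330 and an exact permutation p of 0.00433.

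Axin2 was lower with 1% than with 0.05% quercetin by a difference of -0.47 ± 0.16 (adjusted p = 0.425), and 4 of the 6 mice lay below every 0.05% mouse. Tbx3 had a difference of -0.68 ± 0.24 (adjusted p = 0.466), and its exact permutation p was 0.0563. Lgr5 ran from 6.02 to 6.84 with 1% and from 6.38 to 7.15 with 0.05% quercetin, a difference of -0.32 ± 0.17. For Rhbg, Lect2, Slc1a2 and Znrf3 the differences were -0.40 ± 0.21, -0.25 ± 0.16, -0.15 ± 0.16 and -0.10 ± 0.14. On their brightest probe sets the products of pericentral metabolism and the pathway's own regulators thus shared a sign, with adjusted p-values from 0.330 to 0.863. A further probe set each of Slc1a2 and Znrf3 had the other sign, as given below.

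**Figure D2:**
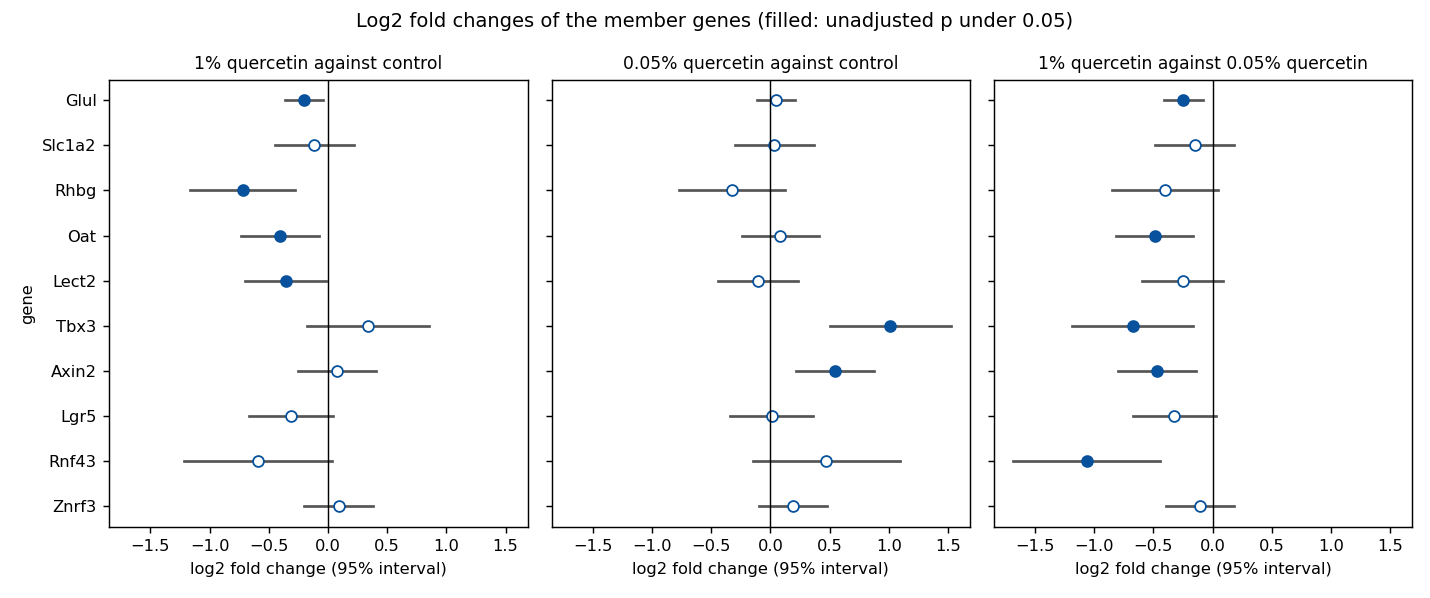
Log2 difference of each gene on its brightest probe set (points) with its 95% interval (lines) in the 3 comparisons, with a line at 0. Filled points mark an unadjusted p under 0.05. All 10 points lie below 0 for 1% against 0.05% quercetin, Rnf43 lowest at -1.06, and Tbx3 stands at 1.01 for 0.05% against control.

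Several genes were read by more than 1 probe set, which gives a second reading of the same RNA. Of the 22 probe sets 15 lay above the limit of 4.69, and the other 7 (2 of Slc1a2, 3 of Tbx3 and 1 each of Axin2 and Lgr5) are given only by their level. Those 7 averaged between 4.09 and 4.72 in each diet. Adjusted p-values in this paragraph and the next are over all probe sets above the limit.

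The second probe set of Glul, 1426235_a_at, showed a wider gap between the diets than the brighter one. It lay between 10.15 and 10.63 with 1% quercetin, between 10.67 and 11.13 with 0.05%, and between 10.61 and 10.90 in controls. The 1% mice did not overlap the 0.05% mice. The difference was -0.49 ± 0.10 against 0.05% quercetin (unadjusted p = 9.79e-05, adjusted p = 0.224) and -0.43 ± 0.10 against control (unadjusted p = 0.00043, adjusted p = 0.330). Both readings of Glul thus had the same sign in both comparisons with the higher dose. The second was larger in size, at -0.43 beside -0.20 against control and -0.49 beside -0.25 against 0.05% quercetin.

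The second probe set of Tbx3, 1437479_x_at, gave nearly the same picture as the first. It lay between 7.06 and 8.57 with 0.05% quercetin and between 6.44 and 7.04 in controls, again without overlap, a difference of 0.98 ± 0.29 (adjusted p = 0.721). Groups apart in this way were seen for 0.171% of all tested genes on their brightest probe sets, and the share over all probe sets was not counted. For Slc1a2 the 3 probe sets above the limit disagreed in sign with 1% quercetin against control, at -0.12 ± 0.16, -0.22 ± 0.16 and 0.20 ± 0.12. For Znrf3 the second probe set, 1437646_at, differed by 0.14 ± 0.16 in that comparison and by 0.04 ± 0.16 with 0.05% quercetin against control. With 1% against 0.05% quercetin it differed by 0.10 ± 0.16, opposite in sign to the brighter probe set at -0.10 ± 0.14. The 3 Slc1a2 probe sets differed there by -0.15 ± 0.16, -0.54 ± 0.16 and 0.02 ± 0.12, in the same order.

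**Figure D3:**
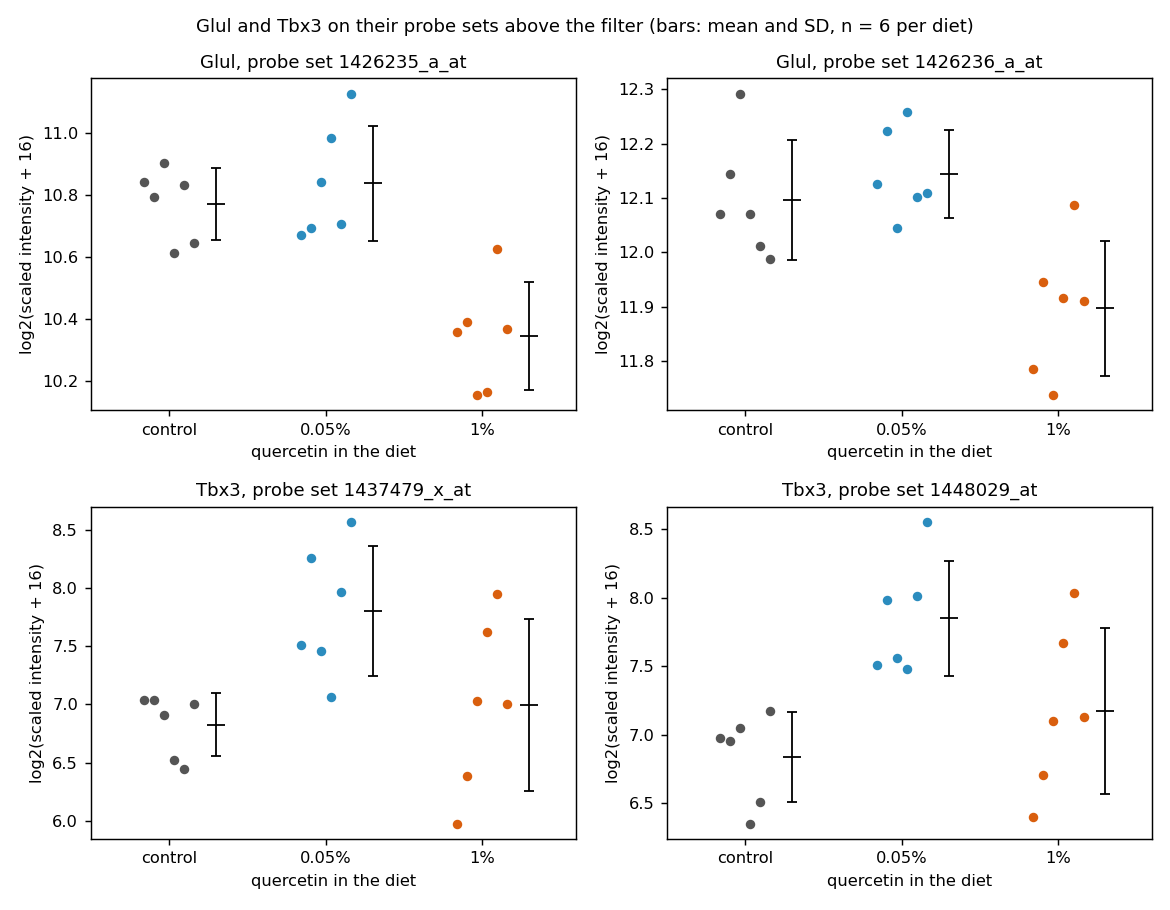
Level of Glul (upper panels) and Tbx3 (lower panels) on each of their 2 probe sets above the limit of 4.69 (log2 of scaled intensity plus 16, vertical axis) in every mouse, by diet in dose order, with the mean and SD (n = 6) beside the points. On both Tbx3 probe sets every 0.05% mouse lies above every control mouse, and on Glul probe set 1426235_a_at every 1% mouse lies below every 0.05% mouse.

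How the genes varied from mouse to mouse within a diet was examined for all 45 pairs after each diet's mean was removed. Positive correlations were found in 28 pairs, and the median Pearson r was 0.13. By a permutation test of r within diets, 5 pairs had an unadjusted p under 0.05 and 3 an adjusted p under it. Glul and Oat had r = 0.71 and Spearman's rho = 0.69 (permutation p = 0.00162, adjusted p = 0.0364; for rho, p = 0.00403, adjusted p = 0.0604). Tbx3 and Rnf43 had r = 0.68 and rho = 0.66 (permutation p = 0.00084, adjusted p = 0.0364; for rho, p = 0.00391, adjusted p = 0.0604). Rhbg and Oat had r = 0.65 and rho = 0.73 (permutation p = 0.00264, adjusted p = 0.0396; for rho, p = 0.00071, adjusted p = 0.0319).

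Leaving out the 2 mice farthest from the median of the first gene gave r = 0.58 for Glul and Oat, 0.63 for Tbx3 and Rnf43 and 0.63 for Rhbg and Oat. When this was done for all 45 pairs none passed the adjusted threshold, the lowest adjusted p being 0.187, and 6 had an unadjusted p under 0.05. Whether the mice left out or their smaller number accounts for the lost calls was not tested. Within the diets, in dose order, r was 0.78, 0.36 and 0.92 for Glul and Oat, 0.71, 0.83 and 0.80 for Tbx3 and Rnf43, and 0.91, 0.73 and 0.42 for Rhbg and Oat, each over 6 mice. The members of a pair come from the same array and share its scaling. The permutations take the mice of a diet as exchangeable, which the division of Rnf43 by replicate number leaves uncertain. Glul and Slc1a2, both concerned with glutamate, had an r of -0.01.

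**Figure D4:**
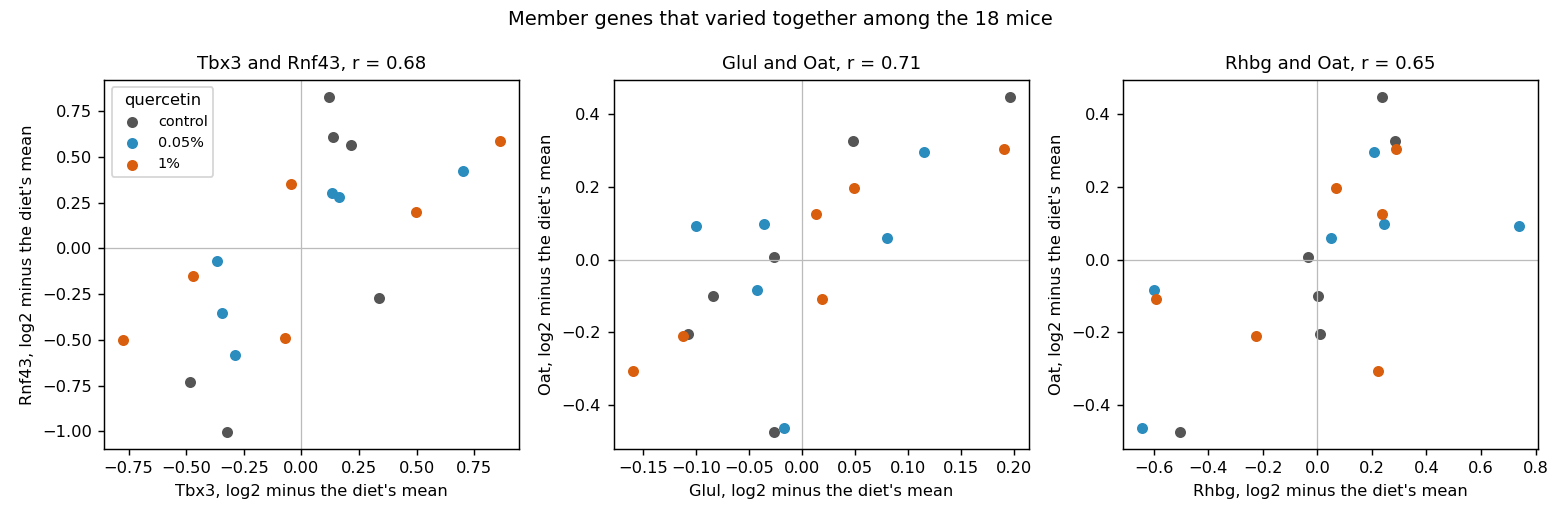
Deviation of each of the 18 mice from its diet's mean (log2 units, both axes) for the 3 pairs with an adjusted permutation p under 0.05, coloured by diet. Over the 18 mice the points run upward, with r = 0.68, 0.71 and 0.65 for Tbx3 and Rnf43, Glul and Oat, and Rhbg and Oat. Within 1 diet r was as low as 0.36 (Glul and Oat, 0.05% quercetin) and 0.42 (Rhbg and Oat, 1%).

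As a description, the 5 tested genes whose deviations were most like those of Glul over the 18 mice were Ssbp1 (Pearson r = 0.87), Gm33409 (0.79), Robo4 (0.78), Ddhd1 (0.78) and Bbc3 (0.78). Those most like Axin2 were H3f3a (0.80), Cd22 (0.80), Zfp189 (0.77), Gm10658 (0.77) and Aplp1 (0.76). None of the other 9 genes of the set was among them.

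The rest of the Wnt pathway was followed in 43 measured genes of 53 listed, from ligands to nuclear factors and targets. None passed the adjusted threshold in any comparison. With 1% quercetin against control 20 were higher and 23 lower on average (median -0.007), and with 0.05% against control 30 were higher and 13 lower (median 0.08). With 1% against 0.05% quercetin 14 were higher and 29 lower (median -0.12), and 9 of the lower genes but 1 of the higher had an unadjusted p under 0.05. Over all tested genes 52.7% were lower in the first comparison and 46% higher in the second. In the third 50.8% were lower, and 4.25% were lower at that p.

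At the level of ligands, Wnt2, made by liver endothelium, ran from 6.14 to 6.97 with 1% quercetin, from 6.01 to 6.78 with 0.05% and from 5.85 to 6.55 in controls. Rspo3, which encodes R-spondin 3, differed from control by 0.03 ± 0.16 with 1% quercetin and by 0.20 ± 0.16 with 0.05%. Markers of liver endothelium are given beside these. Of the 15 listed, 13 were higher with 0.05% quercetin than in controls (4 with an unadjusted p under 0.05, median 0.16) and 12 were higher with 1% (1 at that p, median 0.03). Of all tested genes 46% were higher with 0.05% quercetin, 2.62% at that p, and 52.7% were lower with 1%. With 1% against 0.05% quercetin, where all 10 pericentral genes were lower on their brightest probe sets, 12 of the 15 were lower (1 at that p, median -0.10). Of all tested genes 50.8% were lower there, 4.25% at that p. Their summed intensity lay between 2663 and 3067 with 1% quercetin, between 2629 and 2995 with 0.05% and between 2158 and 2739 in controls, and their part in the values of the pericentral genes was not tested.

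Among nuclear factors, the co-activators Bcl9 and Bcl9l, which join β-catenin to Pygopus proteins, and the receptor gene Lrp5 had the lowest unadjusted p of the list with 1% quercetin against control. Bcl9l averaged 7.56 ± 0.43 with 1% quercetin and 8.01 ± 0.18 in controls, a difference of -0.45 ± 0.17 (adjusted p = 0.422). Bcl9 differed by -0.39 ± 0.13 and Lrp5 by -0.23 ± 0.10. Ctnnb1, which encodes β-catenin itself, was at 11.50 to 11.79 with 1% quercetin and 11.59 to 11.77 in controls.

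Other pathway genes are named for their role after their values were seen. Sp5, a target gene that encodes a repressor of the pathway, ran from 4.69 to 5.84 with 0.05% quercetin and from 4.25 to 4.86 in controls. The control mean of 4.66 lay under the limit of 4.69, so no difference is given. The feedback genes Notum and Dkk4 had differences of 0.02 ± 0.13 and -0.47 ± 0.27 between 0.05% quercetin and control. Dkk4 was dim too, at 4.51 to 5.87 with 0.05% quercetin and 4.59 to 6.35 in controls. The Dishevelled antagonist Nkd1, also a feedback gene, was lower with 1% than with 0.05% quercetin by a difference of -0.35 ± 0.10 (adjusted p = 0.344). The receptor Fzd5 differed by -0.44 ± 0.13 between 1% and 0.05% quercetin (adjusted p = 0.381), with 6.03 to 6.94 with 1% quercetin and 6.76 to 7.23 with 0.05%. Myc, which many signals besides Wnt control, had a difference in the other direction there, of 1.29 ± 0.43, and a span of 5.87 to 9.26 among the 1% mice.

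**Figure D5:**
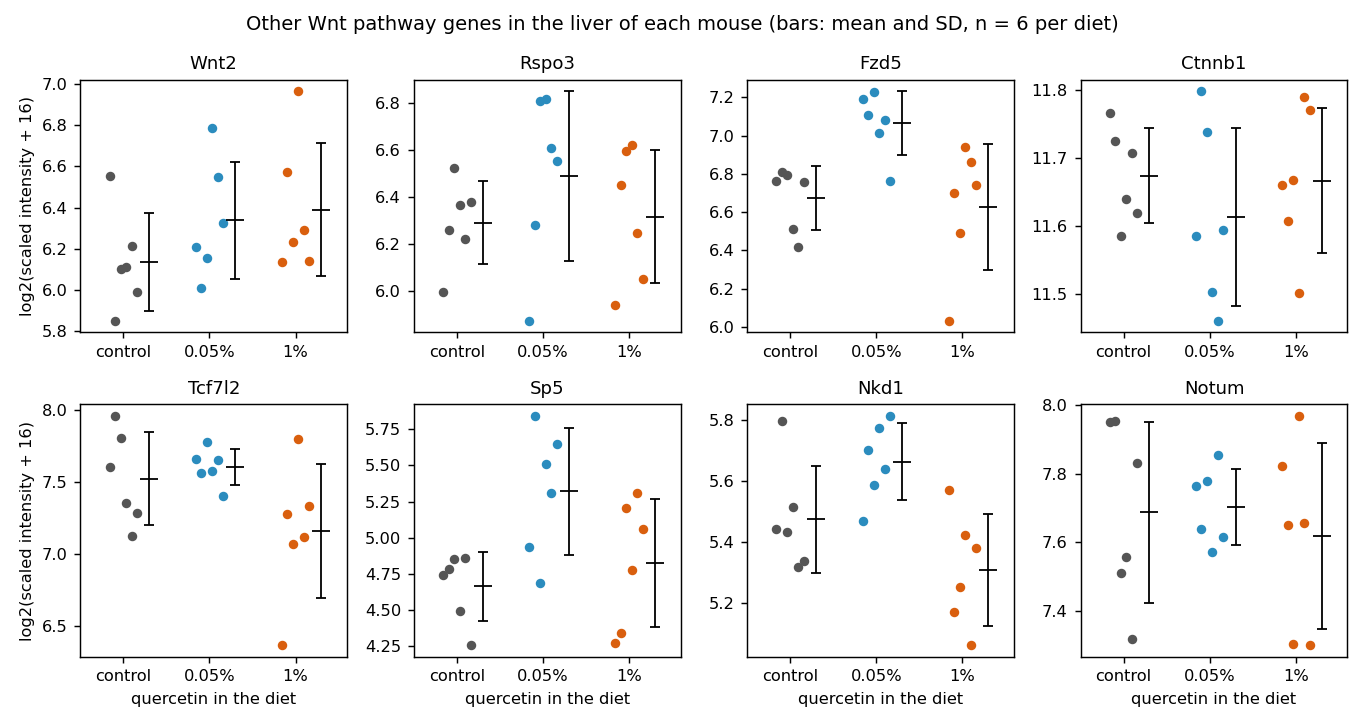
Level of chosen Wnt pathway genes that are not among the 10 (log2 of scaled intensity plus 16, vertical axis) in every mouse, by diet in dose order, with the mean and SD (n = 6) beside the points. Of the Sp5 points 5 of the 0.05% mice lie above the highest control of 4.86, and the Ctnnb1 points of the 3 diets lie over each other.

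Pericentral genes that are not in the set of 10, among them cytochrome P450 enzymes and transporters, gave 13 measured of 16 listed. With 1% quercetin against control 5 were higher and 8 lower, with a median of -0.01, where 52.7% of all tested genes were lower. Gulo, an enzyme of vitamin C synthesis, had a difference of -0.46 ± 0.12 (adjusted p = 0.301), with 10.11 ± 0.17 with 1% quercetin and 10.57 ± 0.19 in controls. The cytochrome P450 gene Cyp2e1 differed by -0.13 ± 0.10 and Cyp1a2 by 0.004 ± 0.169. Rgn and Slc13a3, next by p, differed by -0.14 ± 0.07 and -0.25 ± 0.19. With 0.05% quercetin against control 4 were higher and 9 lower, and with 1% against 0.05% 6 were higher and 7 lower. Of all tested genes 46% were higher in the former and 50.8% lower in the latter.

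Genes of the opposite, periportal end also leaned lower with 1% quercetin. Of 15 measured (18 listed) 13 were lower than in controls and 2 higher, with a median of -0.14 and 4 with an unadjusted p under 0.05, all lower. Over all tested genes 52.7% were lower in this comparison, and 4.93% were lower at that p. Aldh1b1, a mitochondrial aldehyde dehydrogenase, averaged 7.18 ± 0.50 with 1% quercetin and 8.38 ± 0.74 in controls, a difference of -1.19 ± 0.32 (adjusted p = 0.301). Agxt, which detoxifies glyoxylate, differed by -0.46 ± 0.15. Ass1, a urea cycle enzyme, differed by -0.74 ± 0.27 on a dim probe set that ran from 5.03 to 6.41 with 1% quercetin and from 5.84 to 7.18 in controls. With 0.05% quercetin against control 11 of the 15 were lower and 4 higher, where 46% of all tested genes were higher. With 1% against 0.05% 12 were lower, where 50.8% of all tested genes were.

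Because Glul, Rhbg, Slc1a2 and Oat handle nitrogen, other genes of glutamine, ammonia and ornithine metabolism were listed, and 18 of 22 were measured. The measured genes Ass1, Cps1, Asl and Arg1 are in the periportal list as well. All of them were lower on average with 1% quercetin than in controls, so the counts of the lists overlap. With 1% quercetin against control 15 were lower and 3 higher (median -0.15, 4 lower with an unadjusted p under 0.05). Of all tested genes 52.7% were lower there, and 4.93% were lower at that p. Slc25a15, the mitochondrial ornithine carrier, differed by -0.24 ± 0.10, and Got1, the cytosolic aspartate aminotransferase, by -0.61 ± 0.26. With 0.05% quercetin against control 14 were lower and 4 higher (median -0.09), and with 1% against 0.05% 13 were lower and 5 higher (median -0.09). Of all tested genes 46% were higher in the former and 50.8% lower in the latter. None of these lists had a member past the adjusted threshold.

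Markers of other cells were read in the same way. Hepatocyte markers were lower in 5 of 6 with 1% quercetin against control, with a median of -0.06, where 52.7% of all tested genes were lower. The amino acid enzyme Tat stood out at -1.10 ± 0.30. Their summed intensity lay between 43288 and 62033 with 1% quercetin, between 44564 and 66170 with 0.05% and between 51021 and 59964 in controls. Median differences of 1% quercetin against control were -0.01 for 7 macrophage markers, -0.14 for 9 stellate cell markers and 0.04 for 4 bile duct markers. The 5 neutrophil markers measured had a median of 0.18 with 1% quercetin against control and of -0.57 with 0.05%. All 5 were lower in the second, 3 of them at an unadjusted p under 0.05 from limma. With 1% against 0.05% quercetin all 5 were higher, with a median of 0.56 and 2 at an unadjusted p under 0.05. Of all tested genes 46% were higher with 0.05% quercetin than in controls, and 5.03% had an unadjusted p under 0.05 in either direction. With 1% against 0.05% quercetin 50.8% were lower, and 8.8% had an unadjusted p under 0.05 in either direction. The part of these markers in the values of the 10 genes was not tested.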

How the data were processed

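Each of the 18 livers was measured on 1 Affymetrix mouse array with biotin-labelled amplified RNA from a 3′ kit, per the labels' protocols. The deposited values are linear intensity values, 1 per probe set and array; their software and scaling: not given in the sources used here. Genes were named from the platform annotation: 34958 probe sets had exactly 1 symbol, 932 had several and 9160 none. Entrez numbers matched 34754 of them to a GRCm38.p6 annotation and changed 0 symbols.

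Each array was multiplied by 1 factor (0.817 to 1.24) that equalised the median of the tested genes, 16 was added and log2 taken. The brightest probe set with a single symbol stood for its gene, which was tested if the mean passed the 40th percentile of all probe sets (log2 4.69). limma 3.58.1 (R 4.3.3, lmFit and eBayes) was fitted to 3 diet means and all arrays, leaving 15 residual degrees of freedom, two-sided tests and Benjamini-Hochberg adjustment over 12886 genes at 0.05. The code was tested on simulated data. Pairs of genes were tested by 100000 permutations within diets, adjusted over 45 pairs, with numpy 2.4.6 and scipy 1.17.1.

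The 10 genes and all lists were chosen with earlier results of these data known. The rule named, besides the 10 genes, the 3 of each pathway list with the lowest p in 1% quercetin against control and the 5 genes most like Glul and Axin2. Genes named beyond this rule were picked for their role after their values were seen.

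Mice of different diets share replicate numbers. Of 18 same-numbered pairs 4 had correlated deviations over 0.1 (median r 0.005), and 3 of 18 mice correlated best with their own number. The mice were therefore not paired across diets by number. This comparison cannot show a division between low and high numbers within a diet, which was not tested. Alternatives covered scaling, the added constant, the filter, probe set choice, the model, RNA quality and leaving out each array.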

Additional observations from a re-analysis of the deposited data

How the results depend on the processing

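None of the 10 genes passed the adjusted threshold under any alternative tried. The lowest adjusted p over all of them was 0.151 in 1% quercetin against control (Lect2 with the Gapdh ratio as a covariate), 0.245 in 0.05% against control (Tbx3) and 0.130 in 1% against 0.05% (Rnf43), the last 2 with only the 12 arrays compared. Of 960 single-gene values 12 changed sign. Of the 930 that came from a refit, 14 moved from under to over an unadjusted p of 0.05, all in 1% against control (9 of Lect2, 4 of Glul and 1 of Oat), and 18 moved from over to under it. The exact permutation test put Lect2 in 1% against control (p = 0.108) and Tbx3 in 1% against 0.05% (p = 0.0563) over it as well. The sign changes all concerned values near 0 in 0.05% against control: Lgr5 was at -0.0169 after quantile normalization and Slc1a2 at -0.0179 with array weights, and leaving out 1 array gave ranges of -0.0878 to 0.121 for Slc1a2, -0.00989 to 0.178 for Oat, -0.182 to 0.00177 for Lect2 and -0.0824 to 0.0921 for Lgr5. The median over the 10 genes ran from -0.31 to -0.21 (1% against control), 0.02 to 0.13 (0.05% against control) and -0.44 to -0.27 (1% against 0.05%) when 1 array was left out.

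Over all genes, 1% against control gave 1 call, 0 calls on values as deposited, with all probe sets of a gene averaged, with the replicate block and with only the 12 arrays compared, 2 with each probe set as its own feature, and 26 with the Gapdh ratio as a covariate, and leaving out 1 array gave 0 to 3. For 0.05% against control each probe set gave 1 and leaving out 1 array 0 to 1, against 0. For 1% against 0.05% an adjusted threshold of 0.10 gave 2, each probe set 1, only the 12 arrays compared 9 and leaving out 1 array 0 to 1, against 0. The replicate block left the calls among the 10 genes at 0 in all 3 comparisons, and the numbers did not pair the mice. Unadjusted counts on values as deposited were 715, 394 and 708 in the 3 comparisons. Correlated pairs numbered 7 with diet means kept and 0 without the 2 mice farthest from the median, beside 3 as reported, and 2 as deposited and after quantile normalization. Pairs with a positive r numbered 41 (median 0.34) as deposited and 34 (median 0.25) with diet means kept, beside 28. The cause of these differences was not tested. Cage, which could not be modelled, and 6 mice a diet limit what small differences can be shown.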
